A study of Homo sapiens with 6 samples.

Results

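Chemokines are small secreted proteins that direct the migration of leukocytes, and activated hepatic stellate cells are known to secrete several of them. The 10 genes described here were chosen by symbol from the 22701 genes of the deposited expression table. They are the CXC genes CXCL8, CXCL1, CXCL2, CXCL3, CXCL5, CXCL6 and CXCL12, the CC genes CCL2 and CCL20, and the CX3C gene CX3CL1. All 10 were present in the table.

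RNA was measured by sequencing of polyadenylated transcripts in LX-2, an established line of human hepatic stellate cells, the cells that lay down collagen in the injured liver. All cells received TGF-β, which drives stellate cells towards a myofibroblast state, at a stated 5 µg/mL. In 3 libraries that was the only agent. In the other 3, ligustilide (LIG), a phthalide of Angelica and Ligusticum roots, was given as well at 20 µM. No library without TGF-β was analysed here, the labels give neither the time of treatment nor a vehicle, and LX-2 is a single immortalised line. Whether the replicates came from separate cultures is not labelled, and the p-values therefore describe the spread among these samples, which may be technical.

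Chemokines are grouped by the spacing of their first cysteines. The CXC members with a glutamate-leucine-arginine (ELR) motif, here CXCL1, CXCL2, CXCL3, CXCL5, CXCL6 and CXCL8, act on CXCR2 and attract mainly neutrophils. Some of them also act on CXCR1. CXCL12 acts on CXCR4, CCL2 attracts monocytes through CCR2, CCL20 acts on CCR6, and CX3CL1 is a membrane-tethered ligand of CX3CR1. Transcription of the ELR genes is known to be driven by NF-κB downstream of interleukin-1 and TNF, and CXCL12 is commonly regarded as a constitutive product of stromal cells.

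The 6 ELR genes lie together on chromosome 4 between 73740506 and 74099293 (GRCh38, GENCODE release 29), in the order CXCL8, CXCL6, CXCL1, CXCL5, CXCL3 and CXCL2, a span of 359 kb. The other members lie apart. CXCL12 is on chromosome 10 (44370165 to 44386493), CCL2 on chromosome 17 (34255218 to 34257203), CCL20 on chromosome 2 (227805739 to 227817564) and CX3CL1 on chromosome 16 (57372458 to 57385048). An exon of CXCL6 overlaps the pseudogene PPBPP1 on the same strand, and the other 9 genes share no exon with another gene.

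The sequences upstream of 7 members are shown because the ELR genes carry 1 identical string there and CXCL12 does not. Each run is the 140 bases before the RefSeq start site (GRCh38.p14), read 5′ to 3′ on the strand of the gene. Except in CXCL1, these sites differ from the starts of the GENCODE spans given above. The windows of CXCL6 and CXCL12 lie wholly within those spans, and those of CXCL8, CXCL2, CXCL3 and CXCL5 partly. Capitals mark GGAATTTCC, which is a recognition sequence of NF-κB, and in CXCL8 also a match to TGANTCA, the recognition sequence of AP-1.
CXCL8, chr4:73740429-73740568, + strand: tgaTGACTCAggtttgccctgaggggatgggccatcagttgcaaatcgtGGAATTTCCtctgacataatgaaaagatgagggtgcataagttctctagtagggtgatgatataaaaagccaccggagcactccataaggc
CXCL1, chr4:73869253-73869392, + strand: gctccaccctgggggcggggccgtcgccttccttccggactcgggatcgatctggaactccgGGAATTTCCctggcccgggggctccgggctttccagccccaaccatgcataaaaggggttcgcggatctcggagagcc
CXCL2, chr4:74099196-74099335, − strand: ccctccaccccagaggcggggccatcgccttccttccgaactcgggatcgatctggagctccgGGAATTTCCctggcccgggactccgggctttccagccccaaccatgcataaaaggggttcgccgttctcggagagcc
CXCL3, chr4:74038690-74038829, − strand: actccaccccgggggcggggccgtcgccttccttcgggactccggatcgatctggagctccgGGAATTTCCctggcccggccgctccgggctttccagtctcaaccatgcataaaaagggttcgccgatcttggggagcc
CXCL5, chr4:73998678-73998817, − strand: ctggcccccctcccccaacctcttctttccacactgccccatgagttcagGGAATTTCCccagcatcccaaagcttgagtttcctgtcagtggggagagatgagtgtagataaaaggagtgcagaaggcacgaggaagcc
CXCL6, chr4:73836538-73836677, + strand: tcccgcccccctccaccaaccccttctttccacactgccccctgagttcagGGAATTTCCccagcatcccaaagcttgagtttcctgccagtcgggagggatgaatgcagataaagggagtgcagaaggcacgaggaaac
CXCL12, chr10:44385098-44385237, − strand: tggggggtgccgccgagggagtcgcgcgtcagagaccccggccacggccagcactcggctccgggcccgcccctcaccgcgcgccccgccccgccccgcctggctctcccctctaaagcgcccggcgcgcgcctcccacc

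Within the 250 bases before the start site, GGAATTTCC was found on either strand in 6 of 8 members with an entry in the RefSeq table, against 0.413% of all 35116 windows of that length. The string was chosen after the windows had been read. It begins 91 bases before the start in CXCL8, 90 in CXCL5, 89 in CXCL6, 78 in CXCL1 and CXCL3, and 77 in CXCL2. TGANTCA was found in CXCL8 alone of the 8, 137 bases before the start, and in 6.57% of all windows. TGACNNNGC, the core of the antioxidant response element bound by NRF2, was in none of the 8 and in 10.9% of all windows. The ELR windows fall into families by sequence: those of CXCL1 and CXCL2 are identical at 92.1% of the 140 bases when aligned, those of CXCL1 and CXCL3 at 90.7%, and those of CXCL5 and CXCL6 at 90.7%. Of 51 tested genes whose window holds GGAATTTCC, CXCL8 alone changed with LIG, and their median log2 change was 0.01, against 0.03 for the 8740 tested genes with a window.

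With LIG, CXCL8 was the single chemokine gene that changed, and it rose by a log2 value of 0.73. CXCL5, CXCL1 and CCL2 had higher means with LIG and CXCL12 a lower one, and none of these passed the test. CXCL2, CXCL3, CCL20 and CX3CL1 were too low to be tested. Levels are in FPKM, fragments scaled to gene length and library total, so they can be compared between genes. Genes with a mean of at least 1 FPKM over the 6 libraries were tested on log2(FPKM + 1) with limma, and p-values were adjusted over all 10695 such genes by the Benjamini-Hochberg method. Of the 6 members tested, 1 changed at an adjusted p below 0.05, against 0.692% of all genes tested (0.187% higher with LIG).

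The libraries held between 38401784 and 39260091 fragments, as recovered from the steps of the FPKM values. TGF-β replicate 2 and LIG replicate 3 stood apart from the others in the summed FPKM of all genes, at 348518 and 362034 against 324022 to 328949. Stellate cell markers gave a mixed check of the label. VIM (1740 to 2090 FPKM), COL1A1, SPARC and TAGLN were abundant, ACTA2 was at 2.11 to 3.43 FPKM, and DES was at or near 0. The leukocyte marker PTPRC was at or below 0.016 FPKM in all libraries. The summed level of 9 leukocyte and macrophage markers was 13.8 to 16.0 FPKM with TGF-β and 14.9 to 16.5 FPKM with LIG, most of it CD68. Summed markers of lymphocytes, neutrophils and endothelial cells stayed at or below 0.6, 2.01 and 0.338 FPKM. Hepatocyte and cholangiocyte markers reached 4.88 and 13.9 FPKM, mostly SERPINA1 and SOX9. Of 8 stellate cell markers tested, COL3A1 and SPARC fell with LIG (adjusted p = 0.0144 and 0.0435) and 6 did not pass; the part of this in the chemokine values was not tested. In RNA from whole cultures, fewer cells of a type and less RNA per cell cannot be told apart.

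**Figure D1:**
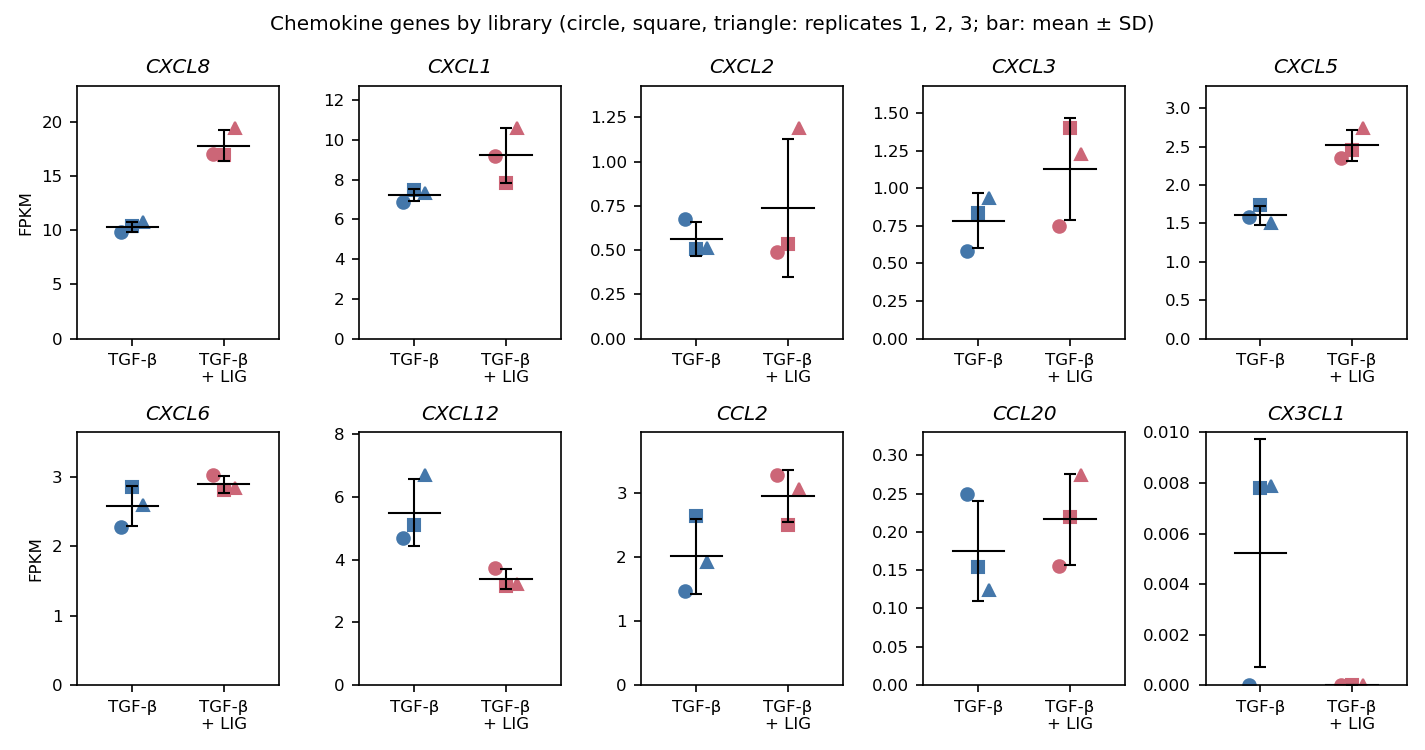
FPKM of the 10 chemokine genes in each library, with TGF-β in blue and TGF-β + LIG in red; symbols mark the replicates, and bars give the mean ± SD (n = 3). The vertical axes differ between panels. CXCL8 and CXCL5 lie higher in all 3 LIG libraries, CXCL12 lies lower, and CX3CL1 is at or near 0.

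CXCL8 encodes interleukin-8, the archetypal neutrophil attractant. Its level was 9.78, 10.4 and 10.7 FPKM in the TGF-β libraries (replicates 1, 2 and 3 in that order, here and below) and 17.0, 16.9 and 19.4 FPKM in the LIG libraries. All LIG libraries lay above all TGF-β libraries, and the lowest LIG value was 1.57 times the highest TGF-β value. The group means were 10.3 ± 0.48 and 17.8 ± 1.4 FPKM (SD, n = 3), a ratio of 1.73. The log2 change was 0.73 ± 0.07 (SE; limma adjusted p = 0.00604), which placed CXCL8 at rank 16 of the 10695 genes by p-value. The call rested on 776 to 854 fragments per TGF-β library and 1334 to 1565 per LIG library. It was lost at adjusted p = 0.051 without TGF-β replicate 3, and at adjusted p = 0.0508 with no filter on low values, where 22701 genes were tested.

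CXCL5, also called ENA-78, is a neutrophil attractant. It was measured at 1.58, 1.74 and 1.5 FPKM with TGF-β, and 2.35, 2.46 and 2.74 FPKM with LIG. Again the groups did not overlap, with a ratio of means of 1.57. The log2 change of 0.43 ± 0.07 narrowly missed the threshold (limma adjusted p = 0.0504; unadjusted 95% interval 0.26 to 0.60). It passed after rescaling to TPM (adjusted p = 0.0412) and without the mean-variance trend (adjusted p = 0.0494). It passed in none of the 6 fits that leave out 1 library, where the adjusted p ran from 0.0773 to 0.304.

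CXCL1, or GROα, was the second most abundant of the 10 genes. Its level was 6.87, 7.49 and 7.33 FPKM with TGF-β and 9.21, 7.85 and 10.6 FPKM with LIG. The groups did not overlap, but LIG replicate 2 was only 1.05 times the highest TGF-β library. The log2 change was 0.30 ± 0.10 and did not pass (adjusted p = 0.389; 95% interval 0.07 to 0.54). CXCL1 and CXCL8 thus differed in how far the LIG libraries lay from the TGF-β libraries, and the ratio of CXCL8 to CXCL1 was 1.39 to 1.46 in the TGF-β libraries and 1.83 to 2.15 in the LIG libraries.

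CXCL6, or GCP-2, resembles CXCL5 in its upstream window and transcript. Its level was 2.28, 2.85 and 2.59 FPKM with TGF-β and 3.03, 2.81 and 2.83 FPKM with LIG. The groups overlapped, since TGF-β replicate 2 lay above LIG replicates 2 and 3. The log2 change was 0.13 ± 0.08 (adjusted p = 0.763), and its 95% interval of -0.05 to 0.31 includes 0. The upper bound lies below the log2 change of 0.43 of CXCL5, although the difference between these genes was not tested.

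CXCL2 and CXCL3, or GROβ and GROγ, are close relatives of CXCL1 and were below the level tested. CXCL2 was measured at 0.674, 0.506 and 0.51 FPKM with TGF-β, and 0.487, 0.537 and 1.19 FPKM with LIG. Only LIG replicate 3 was high, with 52 fragments (exact 95% Poisson interval 38.8 to 68.2, counting error only), against 21 to 29 in the other libraries. Without it the LIG mean was 0.512 FPKM, below the TGF-β mean of 0.563 FPKM. LIG replicate 3 also held the highest values of CXCL8, CXCL1, CXCL5 and CCL20, and is a library that stands apart in summed FPKM. The part of that in the CXCL2 value was not tested.

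CXCL3 was measured at 0.579, 0.835 and 0.937 FPKM with TGF-β, and 0.746, 1.4 and 1.23 FPKM with LIG, from 24 to 58 fragments per library. The groups overlapped at LIG replicate 1, and the mean over all libraries of 0.956 FPKM lay just under the limit for testing. The longest coding transcripts of CXCL1 and CXCL2 align at 88.4% identity over 1102 bases, those of CXCL2 and CXCL3 at 82.6% over 619 bases, and those of CXCL5 and CXCL6 at 79.4% over 1521 bases. How the authors assigned fragments that fit several of these genes is not given in the sources used here, so low values beside an abundant relative are uncertain.

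CXCL12, or SDF-1, was the one tested member with a lower mean with LIG. It was measured at 4.7, 5.09 and 6.71 FPKM with TGF-β, and 3.74, 3.17 and 3.23 FPKM with LIG. No LIG library reached the lowest TGF-β library, and the mean went from 5.5 ± 1.1 to 3.38 ± 0.31 FPKM, a value 38.5% lower. TGF-β replicate 3 was the highest and widened the spread of its group. The log2 change was -0.56 ± 0.12 and did not pass (adjusted p = 0.118; 95% interval -0.83 to -0.29). Without TGF-β replicate 3 the log2 change was -0.43 (adjusted p = 0.304). The gene was well counted, with 642 to 1370 fragments per library.

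CCL2, or MCP-1, is a monocyte attractant much studied in liver fibrosis. It was measured at 1.47, 2.63 and 1.92 FPKM with TGF-β, and 3.28, 2.5 and 3.06 FPKM with LIG. TGF-β replicate 2 lay above LIG replicate 2, so the groups overlapped. The log2 change was 0.41 ± 0.14 (adjusted p = 0.433; 95% interval 0.08 to 0.73), from 42 to 94 fragments per library.

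CCL20 was detected at a low level in all 6 libraries, and CX3CL1 was at the limit of detection. CCL20, the ligand of CCR6, was at 0.124 to 0.249 FPKM with TGF-β and 0.155 to 0.275 FPKM with LIG, that is 4 to 9 fragments per library, and the groups overlapped. CX3CL1, or fractalkine, had 1 fragment in TGF-β replicate 2, 1 in TGF-β replicate 3 and 0 in the other 4 libraries. A count of 0 allows up to 3 fragments (one-sided 95% Poisson limit, counting error only), or 0.0238 FPKM in LIG replicate 2. No difference was detectable for either gene at this depth.

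Across the 6 tested members, 5 had a log2 change above 0, as did 60.9% of all genes tested, and the median was 0.35, against 0.03 for all. The groups did not overlap in 4 members, namely CXCL8, CXCL1, CXCL5 and CXCL12, against 15.8% of all genes tested. With TGF-β replicate 2 and LIG replicate 3 both left out, a choice made with earlier results of these data known, 4 members passed: CXCL8 (adjusted p = 0.000398), CXCL5 (0.0152), CCL2 (0.0427) and CXCL12 (0.0485). In that fit 497 of all 10695 genes tested passed, against 74 with all 6 libraries. It has 2 libraries in each group, and its spread rests on those 4 libraries.

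**Figure D2:**
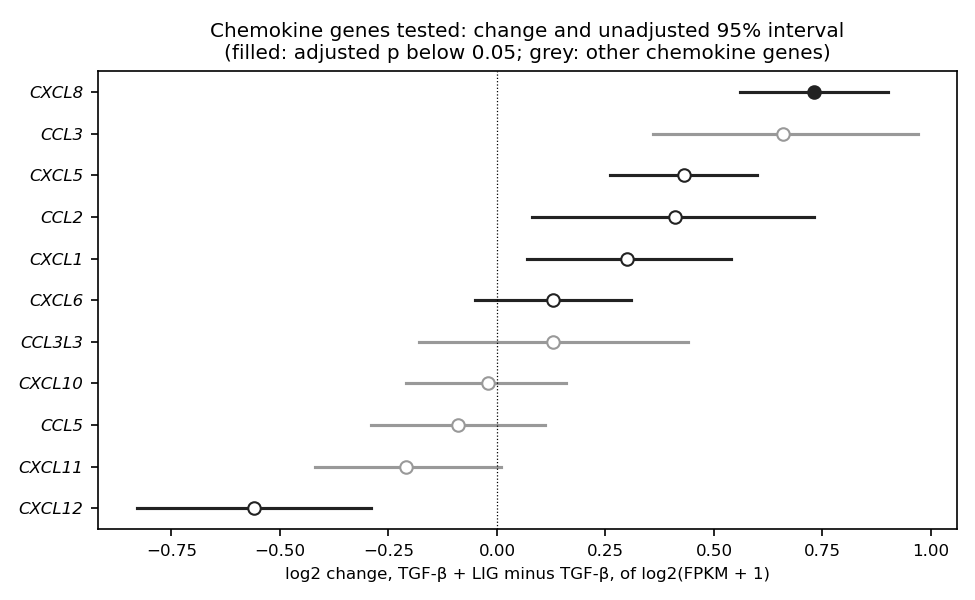
Log2 change with LIG of the 11 chemokine genes tested, on the log2(FPKM + 1) scale, with unadjusted 95% intervals from limma; the members are in black, other chemokine genes in grey, and a filled point marks an adjusted p below 0.05. CXCL8 is the filled point at 0.73, and CXCL12 lies farthest below 0, at -0.56.

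The order of levels was similar in both groups. With TGF-β alone it ran from CXCL8 (10.3 FPKM) through CXCL1 (7.23 FPKM), CXCL12 (5.5 FPKM), CXCL6 (2.57 FPKM), CCL2 (2.01 FPKM), CXCL5 (1.6 FPKM), CXCL3 (0.784 FPKM) and CXCL2 (0.563 FPKM) to CCL20 and CX3CL1. The libraries of CXCL6 overlapped those of CCL2, those of CCL2 overlapped CXCL5, and those of CXCL3 overlapped CXCL2; the other neighbours did not overlap. With LIG, CXCL8 and CXCL1 again led without overlap, at 17.8 and 9.22 FPKM. CXCL12 (3.38 FPKM), CCL2 (2.95 FPKM) and CXCL6 (2.89 FPKM) then followed, with overlap between each neighbouring pair. CXCL12, which lay clear of CXCL6 in the TGF-β libraries, no longer lay clear of the next gene in the LIG libraries.

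Summed over the 10 genes, the level was 28.2, 31.7 and 32.3 FPKM in the TGF-β libraries and 40.0, 37.8 and 44.5 FPKM in the LIG libraries. CXCL8 made up 34.7%, 32.8% and 33.1% of that sum with TGF-β and 42.6%, 44.6% and 43.5% with LIG. The difference in share was 10.02 percentage points, and every LIG library lay above every TGF-β library (exact permutation test, two-sided, p = 0.1, the smallest that 3 against 3 libraries can give). The share is drawn from the same values as the CXCL8 call, so it adds no separate support. The share of CXCL12 went the other way, from 16.1% to 20.8% in the TGF-β libraries to 7.25% to 9.34% in the LIG libraries. The larger sum with LIG adds to that fall, as the mean FPKM of CXCL12 was 38.5% lower.

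**Figure D3:**
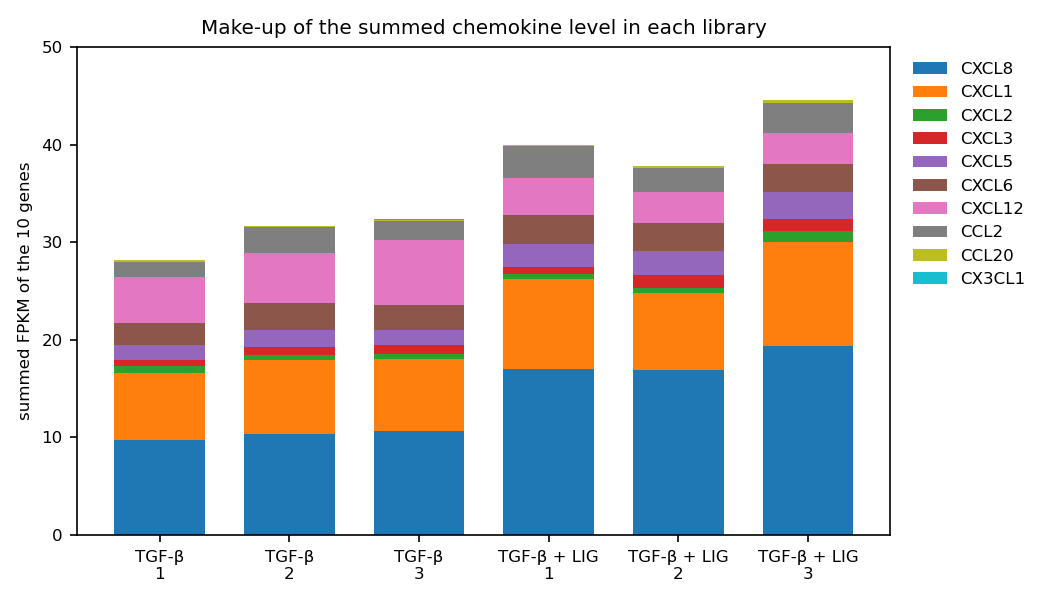
Summed FPKM of the 10 chemokine genes in each library, stacked by gene. The sum is 28.2 to 32.3 FPKM with TGF-β and 37.8 to 44.5 FPKM with LIG, and the CXCL8 segment at the base of each bar is 9.78 to 10.7 FPKM with TGF-β and 16.9 to 19.4 FPKM with LIG.

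The most abundant chemokine transcript lay outside these 10 genes. Of 48 human chemokine genes listed, 29 were in the table, 19 of them outside the 10 members. It was CCL5, or RANTES, an attractant of T cells and monocytes, at 167, 173 and 162 FPKM with TGF-β and 149, 149 and 176 FPKM with LIG (log2 change -0.09 ± 0.09, adjusted p = 0.89). In every library CCL5 alone exceeded the sum of the 10 members, and its groups overlapped. CCL3, or MIP-1α, was measured at 4.12, 5.26 and 4.47 FPKM with TGF-β and 7.93, 6.41 and 9.57 FPKM with LIG. Its groups did not overlap, but the log2 change of 0.66 ± 0.13 did not pass (adjusted p = 0.0986), and CCL3L3 is a near-identical copy, so reads may be split between them. CCL3L3 had a log2 change of 0.13 (adjusted p = 0.902). The interferon-inducible genes CXCL11 and CXCL10 were at 2.55 to 3.63 and 0.925 to 1.26 FPKM and did not pass (adjusted p = 0.611 and 0.985). Of the other 14, 7 were under 0.1 FPKM in every library, among them CXCL9 and PPBP.

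Receptors for these chemokines were at very low levels. Of 17 in the table, none reached a mean of 1 FPKM and 12 were under 0.1 FPKM in every library, including the ELR receptors CXCR1 and CXCR2, the CXCL12 receptor CXCR4, and CCR2, CCR6 and CX3CR1.

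Among 31 tested genes that feed or execute NF-κB and interleukin-1 signals to chemokine genes, IL1B and FOSL1 rose, none fell and 29 did not pass. Of all genes tested, 0.187% rose. The median log2 change was 0.08, against 0.03 for all genes tested. The change was above 0 in 21 of 31, near the 60.9% of all genes tested. The groups did not overlap in 14 of 31, against 15.8% of all genes tested. Of these, IL1RAP was lower with LIG and the others were higher. IL1B encodes interleukin-1β, a strong inducer of CXCL8. It was measured at 31.2, 35.2 and 31.4 FPKM with TGF-β and 56.1, 60.2 and 64.2 FPKM with LIG (log2 change 0.86 ± 0.08, adjusted p = 0.00453). FOSL1 encodes the AP-1 subunit FRA1. It was measured at 54.0, 47.9 and 53.9 FPKM with TGF-β and 76.3, 81.3 and 84.7 FPKM with LIG (log2 change 0.63 ± 0.08, adjusted p = 0.0127). FOSL1 passed in 11 of 16 alternative fits. It did not pass with the replicate number as a block (adjusted p = 0.0717), with no filter on low values (0.0707), or on leaving out LIG replicate 2 (0.0669) or either of TGF-β replicates 1 (0.0625) and 3 (0.0766). In both genes the groups did not overlap. NFKB2, the precursor of the p52 subunit, was next, at 16.3 to 17.6 and 20.9 to 23.9 FPKM (adjusted p = 0.151). NFKBIA and TNFAIP3, feedback inhibitors that NF-κB induces, were at 32.5 to 37.3 and 36.6 to 46.4 FPKM and at 4.65 to 5.17 and 4.34 to 4.94 FPKM (adjusted p = 0.557 and 0.939). Their log2 changes were 0.23 and -0.06. In the same list the log2 change was 0.37 for RELB, 0.28 for NFKBIE, 0.22 for NFKBIB and 0.17 for TNIP1. It was 0.02 for NFKBIZ and -0.09 for BCL3. None of these genes passed, and all were named after their values were seen. TNF itself was at or below 0.0911 FPKM in all libraries.

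Genes that act on chemokine messages or proteins did not pass. None of 10 genes for decay of AU-rich messages changed (limma; 0 at an unadjusted p under 0.05, median log2 change 0.03). The smallest adjusted p was that of ZC3H12A, which encodes the endonuclease regnase-1, at 8.38 to 9.75 and 10.1 to 10.9 FPKM (adjusted p = 0.592). RC3H1 and TIA1 followed with adjusted p = 0.823 and 0.847. None of 6 tested proteases that shed or trim chemokines changed (limma, 2 at an unadjusted p under 0.05, median log2 change 0.02). Of all genes tested, 8.41% had an unadjusted p under 0.05 in the same fit. MMP1, an interstitial collagenase, was at 12.7 to 16.0 and 15.5 to 21.6 FPKM (adjusted p = 0.457), ANPEP at 6.52 to 7.4 and 7.29 to 9.1 FPKM (adjusted p = 0.542) and MMP9 at 9.89 to 10.3 and 8.33 to 10.1 FPKM (adjusted p = 0.741). DPP4, the peptidase that inactivates CXCL12, was at or below 0.0219 FPKM.

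The genes whose levels followed CXCL8 most closely over the 6 libraries were drawn from outside the chemokines. Likeness was the root mean square difference of log2(FPKM + 1) after each gene was centred on its own mean. Among the 5 nearest of the genes tested were ANGPTL4 (0.0617), an inhibitor of lipoprotein lipase, GCLM (0.0831), the modifier subunit of glutamate-cysteine ligase, ESM1 (0.0835), which encodes endocan, and IL1B (0.0953). The other tested members were farther from CXCL8: CXCL5 at 0.161, CXCL1 at 0.224, CCL2 at 0.235, CXCL6 at 0.315 and CXCL12 at 0.661. The difference between the groups makes up most of this likeness, so any gene with a similar change lies near. Adding 1 FPKM also understates the changes of low genes such as CXCL5 and CCL2. With 0.1 added instead, the log2 change was 0.62 for CXCL5, 0.56 for CCL2 and 0.34 for CXCL1, against 0.78 for CXCL8. The likeness was not recomputed on that scale.

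**Figure D4:**
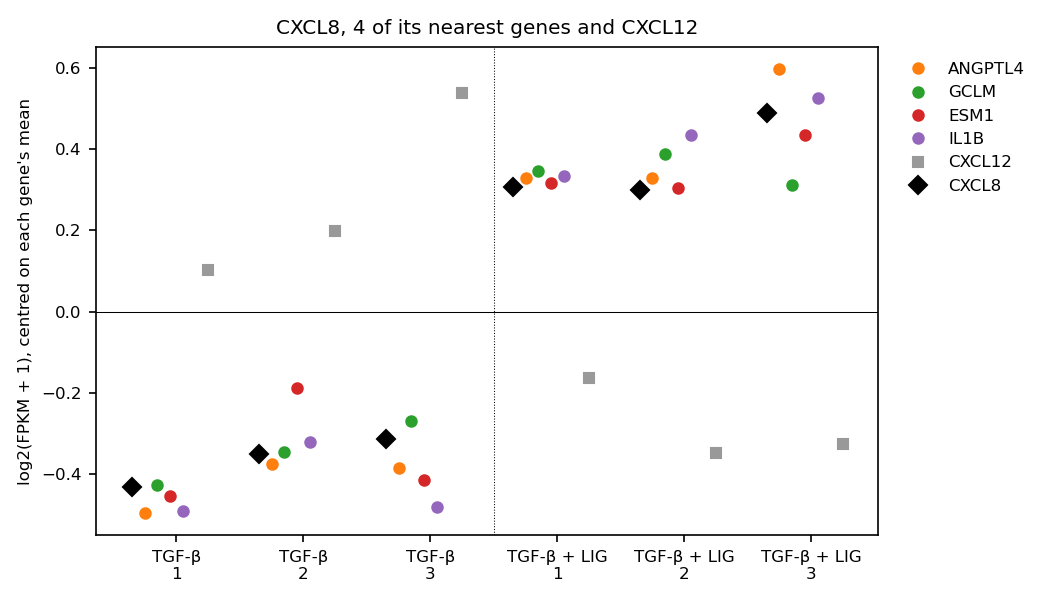
CXCL8, 4 of the genes nearest to it and CXCL12 in each library, as log2(FPKM + 1) centred on the mean of each gene over the 6 libraries; points are set side by side within a library. CXCL8 and these 4 genes lie below 0 in the TGF-β libraries and above 0 in the LIG libraries, and CXCL12 lies on the opposite side in each.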

How the data were processed

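Per the file headers, the authors deposited FPKM values with a column for each library. Tools named in the submitters' processing notes, without roles, are fastp, HISAT2 2.1.0 and DESeq2, with the assembly GRCh38.p13; the counting tool, annotation and use of strand are not given in the sources used here. Fragments were recovered from the steps of the values for 20470 genes, including all 10695 tested (99.99% of 111892 values whole within 0.01), and served for depth, counting intervals and 1 alternative.

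The filter was a mean of at least 1 FPKM over the 6 libraries. The test was limma 3.58.1 in R 4.3.3, on log2(FPKM + 1) (group only, empirical Bayes with a trend, two-sided, Benjamini-Hochberg at 0.05). This scale understates changes of low genes. No scaling between libraries was added. The members and gene lists were chosen with earlier results of these data known. Named were all members, list genes that passed or, where fewer than 3 did, the 3 with the smallest adjusted p, chemokines with a mean of at least 1 FPKM, and genes among the 5 nearest CXCL8; some genes that this rule or the marker lists hold are not reported here. Transcripts (GENCODE release 29) were aligned with blastn 2.17.0. Upstream windows are from RefSeq (GRCh38.p14); CCL2 and CX3CL1 had no entry. Replicate numbers were not used to pair the libraries in the main fit, as the labels do not say whether they do.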

Additional observations from a re-analysis of the deposited data

How the results depend on the processing

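Over 16 alternative fits, all 92 recomputed changes of the tested members kept their direction. The number of chemokine genes that changed was 1, and 2 after rescaling to TPM or without the trend (CXCL8 and CXCL5). It was 0 with no filter on low values (limma, 5 of 10 members at an unadjusted p under 0.05). It was 4 without both libraries that stand apart, and 0 to 1 on leaving out a single library. Without TGF-β replicate 3 it was 0 (limma, 4 of 6 members at an unadjusted p under 0.05). In the main fit 5 of 6 members had an unadjusted p under 0.05 (limma), against 8.41% of all genes tested. The count over all genes was 74. It was 14 with no filter, 497 without both libraries that stand apart, and 11 (without TGF-β replicate 3) to 93 (without LIG replicate 3) on leaving out a single library. Fewer libraries also mean less power. With the replicate number as a block, 22 genes changed, CXCL8 among them (adjusted p = 0.0317), and CXCL5 had adjusted p = 0.228. Deviations of same-numbered libraries correlated at 0.47, -0.57 and -0.34 across genes, so the shared numbers are no evidence of pairing. The share of CXCL8 in the summed level differed by 7.23 points over the ELR genes alone and by 9.49 to 10.6 points on leaving out a single library. Depth limits what can be said of CXCL2, CXCL3, CCL20 and CX3CL1.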

Other observations

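Of the 17 receptors, all below the level tested, 3 had groups that did not overlap. The share of 15.8% holds for the genes tested, and no share was taken for genes at such low levels. The 3 receptors were named after their values were seen and were not tested. ACKR3, a scavenging receptor of CXCL12, was at 0.398, 0.445 and 0.302 FPKM with TGF-β and 0.271, 0.2 and 0.226 FPKM with LIG. CCRL2, a non-signalling receptor that binds chemerin, was at 0.556, 0.604 and 0.581 FPKM with TGF-β and 0.79, 0.99 and 0.873 FPKM with LIG. CXCR2 was lower with LIG on values of at most 0.061 FPKM.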
